A study of Mus musculus with 6 samples.

Results

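Gene markers of blood and marrow cells, 6 in number, were followed in the forearm bones of newborn mice: Alas2 and Tfrc for red cell precursors, S100a8 for granulocytes, Mrc1 and C1qb for macrophages, and Pf4 for platelets and the megakaryocytes that shed them. They were taken by symbol, as the probe sets (the array's groups of probes for 1 transcript) to which the platform annotation gives exactly that 1 symbol, and each of the 6 genes had 1 probe set, so 6 of the 8997 probe sets on record are described. The samples were total RNA of radius and ulna from newborns of the 129sv strain, each read in a single colour on an Affymetrix whole-transcript array. Of the 6 arrays, 3 held wild-type bone and 3 the bone of littermates with the del175k mutation of Tnni2, the gene for fast skeletal muscle troponin I; no other allele or treatment is given. The labels do not give the number of mutant alleles, or whether an array held the bone of 1 mouse or of several, so the spread between arrays may be partly technical.

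Newborn long bones are still taking up blood formation, as a marrow cavity opens behind the growth plate and is seeded from the circulation. Red cell precursors import iron through the transferrin receptor and build haem from it, granulocytes fill with antimicrobial proteins, macrophages clear cells and recycle iron, and megakaryocytes load platelets with chemokines. The transcription factors GATA1 and KLF1 direct red cell genes, GATA1 also directs megakaryocyte genes, and PU.1 directs the genes of granulocytes and macrophages. In whole bone, fewer cells of a type and less RNA per cell cannot be told apart.

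The values were intensities on a linear scale, and array medians lay between 39.6 and 48.4 units. Wild-type replicate 1 stood apart as the dimmest array, with a median of 39.6 against 45.5 to 48.4 on the others, and 50.0% of all probe sets had their lowest value there. All 8997 probe sets were at 20 or more on at least 3 arrays, so the table had been filtered by level. The bone matrix gene Col1a1 was bright on every array, between 6552 and 7807, while skeletal muscle genes (Acta1 between 1955 and 3614) and, on some arrays, skin genes (Krt1 between 9.41 and 960.2) were present too. The samples thus held RNA of muscle and skin beside that of bone, and in which of these tissues the blood cell transcripts lay was not tested.

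RefSeq promoter sequences (build GRCm38.p6) were at hand for all 6 genes, with 7 start sites in all. The 250 bases before the start are shown for 4 of them, 1 for red cells and 3 for the myeloid cells, because they hold short motifs that the lineage factors named above are known to read. In Alas2 the capitals mark GATAA, a core of the GATA site, and CCACCC, a core of the KLF1 site, on either strand. In S100a8, Mrc1 and C1qb they mark GAGGAA, a core of the PU.1 site, on either strand.
Alas2, chrX:150547167-150547416, plus strand: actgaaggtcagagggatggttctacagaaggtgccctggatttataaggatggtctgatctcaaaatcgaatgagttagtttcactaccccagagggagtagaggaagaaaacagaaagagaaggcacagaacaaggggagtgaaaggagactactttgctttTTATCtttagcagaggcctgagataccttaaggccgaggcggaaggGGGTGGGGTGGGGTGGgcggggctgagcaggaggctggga
S100a8, chr3:90668821-90669070, plus strand: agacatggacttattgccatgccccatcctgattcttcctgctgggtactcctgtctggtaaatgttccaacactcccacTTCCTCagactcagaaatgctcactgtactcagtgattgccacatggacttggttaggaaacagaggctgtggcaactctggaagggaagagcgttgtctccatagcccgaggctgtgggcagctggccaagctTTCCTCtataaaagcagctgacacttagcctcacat
Mrc1, chr2:14229164-14229413, plus strand: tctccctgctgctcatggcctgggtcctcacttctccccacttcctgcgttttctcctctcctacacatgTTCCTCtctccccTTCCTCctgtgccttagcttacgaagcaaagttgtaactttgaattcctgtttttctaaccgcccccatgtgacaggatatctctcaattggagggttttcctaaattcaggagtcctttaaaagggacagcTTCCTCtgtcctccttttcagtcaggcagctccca
C1qb, chr4:136886201-136886450, minus strand: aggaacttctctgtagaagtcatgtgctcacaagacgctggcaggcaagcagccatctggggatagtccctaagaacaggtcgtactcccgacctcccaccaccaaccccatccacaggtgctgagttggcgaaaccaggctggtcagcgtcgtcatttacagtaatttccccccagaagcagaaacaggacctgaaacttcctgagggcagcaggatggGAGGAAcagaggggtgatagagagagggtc

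Among the 6 genes GATAA was found in 1, Alas2, and in 22.6% of all 32851 promoter windows of this length. CCACCC was found in 2 of the 6, with 3 matches in Alas2, which overlap one another by 1 base, and 3 before 1 of the start sites of Tfrc, against 28.1% of all windows. GAGGAA was found in 5 of the 6, all but Tfrc, against 23.3% of all windows, with 3 matches in Mrc1 and 2 in S100a8. Such matches describe the letters of these windows and do not show that a factor binds there.

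The comparison asks whether blood cell genes differ between the bones of mutant and wild-type newborns. All 6 markers had a higher mean in mutant bone, where 56.7% of all probe sets did. With the dim wild-type replicate 1 left out all 6 were still higher, and the share of all probe sets was 44.7%. As the markers were chosen with earlier results of these data known, their shares and ranks among all probe sets are descriptions only. The log2 differences of the markers over all arrays, mutant minus wild-type, lay between 0.24 for Pf4 and 0.73 for Alas2, with a median of 0.49 against 0.045 over all probe sets. With limma adjusted over all 8997 probe sets, 0 of the 6 passed at 0.05, and 0 of the 8997 did (0%). At an unadjusted p under 0.05 there were 2 of the 6, Alas2 and Tfrc, both higher in the mutants, where 5.74% of all probe sets (516) were higher and 1.70% (153) lower. That split moved with the scaling and the dim array, to 570 higher of 864 after median centring, 532 of 854 after quantile normalization, 288 of 595 when wild-type replicate 1 was left out and, under array weighting, 616 of 1412. The lowest mutant array exceeded the highest wild-type array in 1 of the 6, C1qb, and likewise in 9.18% of all probe sets. The filter by level favours a higher mutant mean in C1qb and S100a8, whose wild-type replicates 1 and 2 lay under 20. Elsewhere in the table, limma with array weights called 4 probe sets and limma without mutant replicate 3 called 15, none of them a marker described here.

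**Figure D1:**
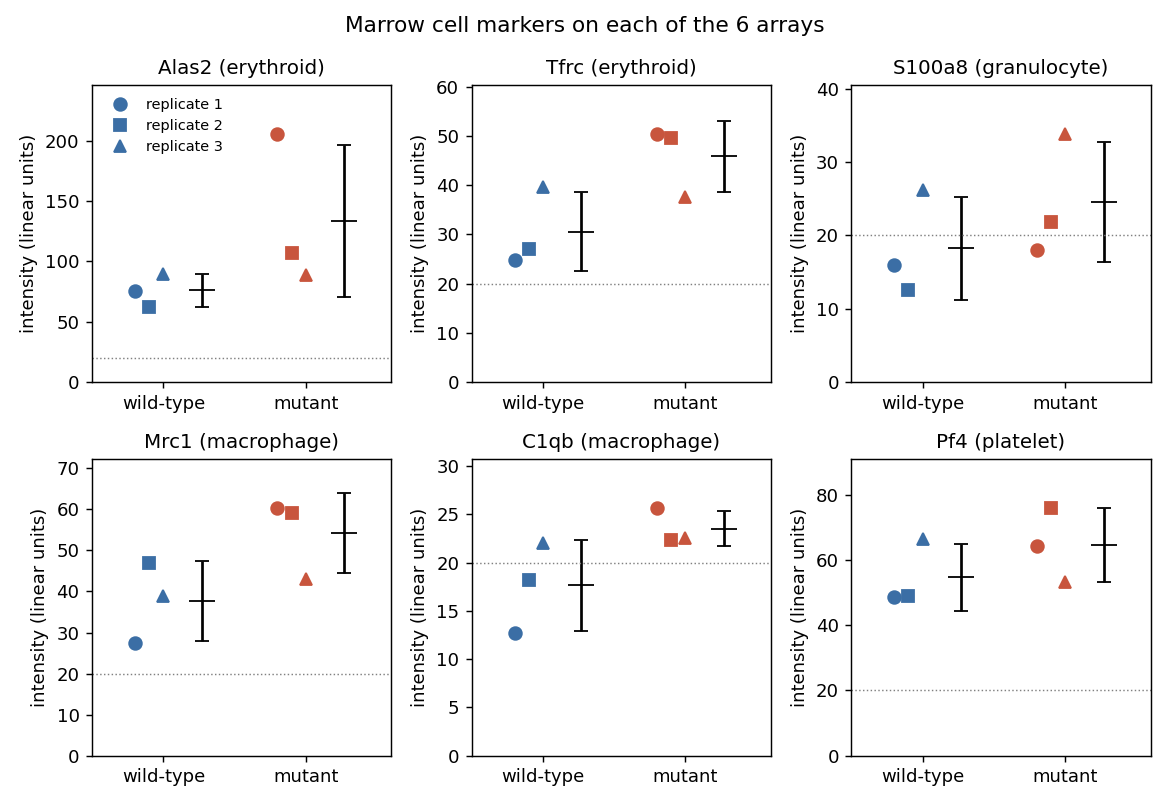
Intensity (linear units, vertical axis from 0) of the 6 markers on each array, wild-type in blue and mutant in red, with the shape giving the replicate number, the bar giving the mean ± SD of 3 arrays and the dotted line an intensity of 20. Alas2 stands out on mutant replicate 1 (205.2), and the groups overlap in every panel but that of C1qb, where the lowest mutant array (22.4) lies just above the highest wild-type array (22.0).

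Alas2 encodes the red cell form of aminolevulinate synthase, the first enzyme of haem synthesis. Its intensity was 75.3, 62.4 and 89.8 on wild-type replicates 1, 2 and 3, and 205.2, 106.5 and 88.4 on mutant replicates 1, 2 and 3. Mutant replicate 1 was far above every other array, and mutant replicate 3 lay just below the highest wild-type array, so the groups overlapped. The means were 75.9 ± 13.7 and 133.4 ± 62.9 (SD, n = 3 each), a log2 difference of 0.73 ± 0.31 (SE, limma adjusted p = 0.667) or 1.66-fold, with a 95% interval from 1.02-fold to 2.70-fold before adjustment. Without mutant replicate 1 the log2 difference was 0.37, and without mutant replicate 3 it was 0.98.

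Tfrc encodes the transferrin receptor, through which dividing cells and above all red cell precursors take up iron. It was at 24.8, 27.1 and 39.7 in wild-type bone and at 50.4, 49.7 and 37.6 in mutant bone, in the order of replicates 1 to 3. Mutant replicates 1 and 2 were above every wild-type array, while mutant replicate 3 lay between wild-type replicates 2 and 3. The means of 30.6 ± 8.04 and 45.9 ± 7.17 (SD, n = 3 each) gave a log2 difference of 0.61 ± 0.24 (SE, limma adjusted p = 0.667). This was 1.52-fold, with an interval from 1.05-fold to 2.21-fold before adjustment, and without wild-type replicate 1 the log2 difference was 0.47.

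S100a8 encodes a subunit of calprotectin, the calcium-binding protein that fills the cytoplasm of neutrophils. It was dim, at 16.02, 12.6 and 26.2 in wild-type bone and 18.1, 21.9 and 33.8 in mutant bone, and 3 of the 6 values lay under 20. Wild-type replicates 1 and 2 were among them, so the filter by level kept the gene only with mutant arrays at 20 or more. That condition favours a higher mutant mean. Replicate 3 was the highest array in both groups, and only that mutant array lay above all wild-type arrays. The means were 18.3 ± 7.06 and 24.6 ± 8.20 (SD, n = 3 each), a log2 difference of 0.45 ± 0.32 (SE, limma adjusted p = 0.747), or 1.36-fold with an interval from 0.83-fold to 2.24-fold. The difference was 0.19 without mutant replicate 3, 0.21 without wild-type replicate 2 and 0.74 without wild-type replicate 3.

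Mrc1 encodes the mannose receptor CD206, which tissue macrophages use to take up glycoproteins. Its wild-type values were 27.4, 46.9 and 38.9 and its mutant values 60.3, 59.2 and 43.0. Mutant replicates 1 and 2 were well above all wild-type arrays and close to each other, and mutant replicate 3 lay below wild-type replicate 2. The means were 37.7 ± 9.76 and 54.2 ± 9.71 (SD, n = 3 each), a log2 difference of 0.54 ± 0.25 (SE, limma adjusted p = 0.686), or 1.45-fold with an interval from 0.98-fold to 2.15-fold. Without wild-type replicate 1, its lowest array, the difference was 0.33.

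C1qb encodes the B chain of complement C1q, which macrophages secrete and which tags dying cells and immune complexes. It was at 12.7, 18.2 and 22.0 in wild-type bone and 25.6, 22.4 and 22.5 in mutant bone. The groups did not overlap, but the gap between wild-type replicate 3 and mutant replicate 2 was 0.349 units, and the wild-type arrays were spread more widely than the mutant arrays. The means were 17.6 ± 4.70 and 23.5 ± 1.83 (SD, n = 3 each), a log2 difference of 0.45 ± 0.24 (SE, limma adjusted p = 0.709), or 1.37-fold with an interval from 0.94-fold to 1.97-fold. Wild-type replicates 1 and 2 lay under 20, where a fold moves with the background correction, which the sources do not give. The filter by level thus kept C1qb only with mutant arrays at 20 or more, which favours a higher mutant mean and a lack of overlap. Without wild-type replicate 1 the difference was 0.23, with array weights it was 0.22, and with 16 added to each intensity before the logarithm it was 0.24.

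Pf4 encodes platelet factor 4 (CXCL4), a chemokine of platelet granules that some tissue macrophages also express. It was at 48.6, 49.1 and 66.6 in wild-type bone and 64.4, 75.9 and 53.2 in mutant bone. Only mutant replicate 2 was above the highest wild-type array, and mutant replicate 3 was below it by 13.4 units, so the groups were interleaved. The means were 54.8 ± 10.3 and 64.5 ± 11.4 (SD, n = 3 each), a log2 difference of 0.24 ± 0.22 (SE, limma adjusted p = 0.790), or 1.178-fold with an interval from 0.83-fold to 1.67-fold. This was the smallest of the 6 differences, and without mutant replicate 2 it was 0.11.

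The markers did not share 1 order of arrays. Mutant replicate 1 was the highest array for 4 of the 6 (Alas2, Tfrc, Mrc1 and C1qb), mutant replicate 2 for Pf4 and mutant replicate 3 for S100a8, where mutant replicate 1 was the highest for 20.9% of all probe sets. Wild-type replicate 1, the dim array, was the lowest for 4 of the 6 (Tfrc, Mrc1, C1qb and Pf4), near its 50.0% share among all probe sets. Wild-type replicate 2 was the lowest for Alas2 and S100a8. Relative to the median of each array, on the log2 scale, Tfrc stood at -0.67, -0.84 and -0.27 in the wild-type and at 0.08, 0.13 and -0.34 in the mutants, so the overlap through mutant replicate 3 remained after this centring. C1qb stood at -1.64, -1.41 and -1.12 in the wild-type and at -0.89, -1.02 and -1.08 in the mutants. After median centring the log2 differences were 0.67 for Alas2, 0.55 for Tfrc, 0.48 for Mrc1, 0.39 for C1qb and for S100a8, and 0.18 for Pf4.

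The spread within groups also differed between markers. The within-group SD on the log2 scale was 0.50 for S100a8 and 0.49 for Alas2, larger than in 89.4% and 88.4% of all probe sets. It was 0.34 for Mrc1, 0.31 for Tfrc and 0.30 for C1qb, and the smallest, 0.26 for Pf4, was larger than in 42.7% of probe sets. Over all probe sets, 97.0% had a smaller log2 difference than Alas2, 94.6% than Tfrc and 72.7% than Pf4.

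**Figure D2:**
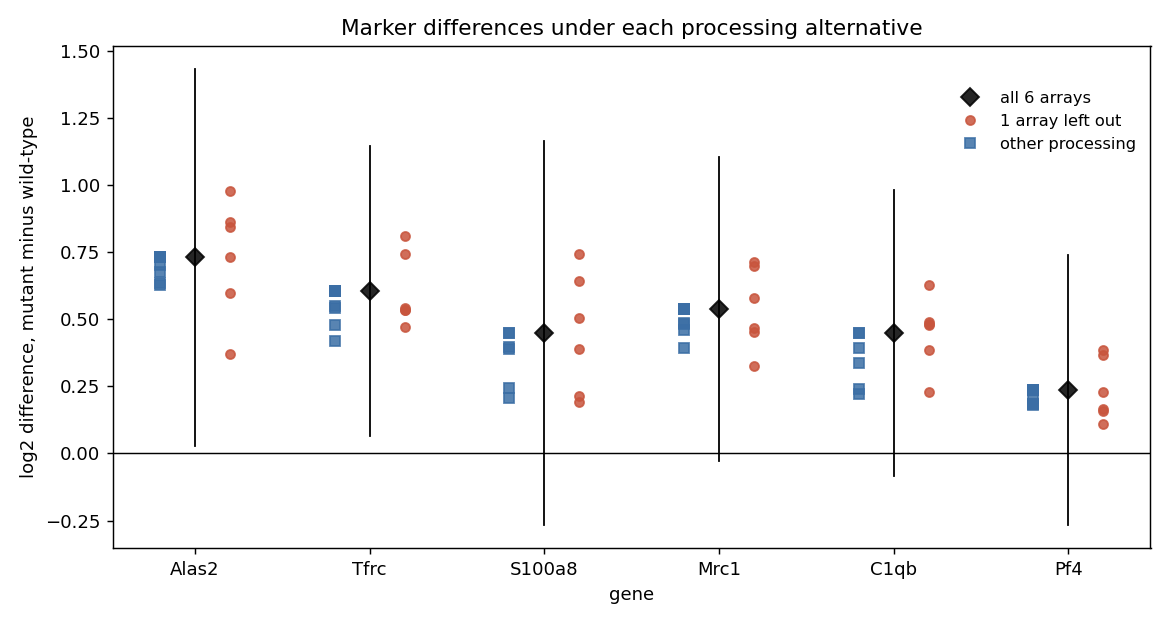
Log2 difference, mutant minus wild-type, of the 6 markers (horizontal axis), with all 6 arrays in black and its 95% interval as a line, with 1 array left out in red and under other processing in blue. Every point lies above 0, from 0.11 (Pf4 without mutant replicate 2) to 0.98 (Alas2 without mutant replicate 3), while the intervals of S100a8, Mrc1, C1qb and Pf4 extend below 0.

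Other red cell genes did not all lie on the side of Alas2 and Tfrc. Of 43 listed red cell genes 15 were measured under a symbol of their own, 8 with higher and 7 with lower means in the mutants, and 0 passed. Their median log2 difference was 0.07, where the median of all named genes was also 0.07, and it turned to -0.0004 after quantile normalization, -0.10 with array weights, -0.12 in the fit that left out wild-type replicate 2 and -0.19 in the one that left out mutant replicate 1. Another 6 listed genes, among them globin genes, shared probe sets with other symbols and were not named.

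Slc4a1, which encodes band 3, the anion exchanger of the red cell membrane, was at 172.2, 50.0 and 162.4 in wild-type bone and at 262.4, 83.9 and 47.0 in mutant bone. It was thus high on replicates 1 and 3 of the wild-type and replicate 1 of the mutants, and the log2 difference came to -0.15 ± 0.63 (SE, limma adjusted p = 0.966), which turned to 0.17 without wild-type replicate 1. Cldn13, a claudin of mouse red cell precursors, was at 39.1, 12.5 and 24.5 against 21.8, 13.3 and 5.92 (-0.93 ± 0.50, adjusted p = 0.708). Rhd, for the Rhesus blood group protein, was at 43.0, 13.1 and 23.4 against 22.1, 16.6 and 13.1 (-0.48 ± 0.39). Mutant replicates 2 and 3 of Cldn13 and of Rhd lay under 20. The filter by level thus kept these genes only with wild-type arrays at 20 or more, which favours a lower mutant mean. When wild-type replicate 1, the highest array of both, was left out, Cldn13 was at -0.54 and Rhd at -0.05. The transcription factor gene Tal1 was at -0.30 ± 0.23 and the water channel gene Aqp1, which vessels also express, at -0.37 ± 0.21. Mutant replicate 1 was the highest array for 6 of the 15 red cell genes, among them Alas2, Tfrc and Slc4a1, and wild-type replicate 1 for 5, among them Rhd and Cldn13. The mean level of the red cell list was 0.43, -0.35 and 0.12 in wild-type bone and at 0.28, -0.11 and -0.35 in mutant bone (log2, relative to all genes). The arrays of each group thus differed in red cell genes by more than the groups did.

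The haem and iron genes around Alas2 and Tfrc held several of the larger differences. Of 40 listed genes 29 were measured, 19 with higher and 10 with lower means in the mutants, 0 passed, and their median was 0.10. Leaving out wild-type replicate 1 gave a median of 0.03, with 16 of 29 higher, and leaving out mutant replicate 1 gave 0.05. The median was higher when mutant replicate 2 (0.18), wild-type replicate 3 (0.23) or mutant replicate 3 (0.24) was left out, and it was 0.01 after quantile normalization. In 6 of the 29 the mutant values lay entirely above the wild-type values, against 9.18% of all probe sets. For Fech, among these 6, the filter by level favoured this order, as set out below. Slc40a1, which encodes ferroportin, the iron exporter of macrophages, was at 24.5, 41.5 and 37.5 in wild-type bone and at 81.0, 50.8 and 54.2 in mutant bone. Its groups did not overlap, with means of 34.5 ± 8.86 and 62.0 ± 16.6 (SD, n = 3 each) and a log2 difference of 0.85 ± 0.27 (SE, limma adjusted p = 0.595). Without wild-type replicate 1 that difference was 0.62.

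Trf, which encodes transferrin, the iron carrier that binds the receptor made from Tfrc, was at 32.5, 36.1 and 28.2 against 52.6, 49.5 and 37.9, again without overlap (0.52 ± 0.21, adjusted p = 0.667). Fech, for ferrochelatase, which puts iron into haem at the end of the pathway that Alas2 opens, was at 18.2, 19.7 and 22.1 against 37.9, 22.8 and 24.8 (0.48 ± 0.24, adjusted p = 0.700). As in Alas2, mutant replicate 1 was the highest array for Fech by a wide margin. Ireb2, which encodes an iron regulatory protein that stabilises the transferrin receptor transcript when iron is low, was at 12.8, 25.4 and 23.2 against 27.4, 28.8 and 34.1 (0.61 ± 0.28, adjusted p = 0.672). Its value on wild-type replicate 1 lay under 20, and without that array the difference was 0.31. Other enzymes of haem synthesis lay lower or near the wild-type level, with Alad at -0.45 ± 0.34, Urod at -0.07 ± 0.26 and Cpox at -0.03 ± 0.26. Alas1, the form of the first enzyme found in all cells, was at 0.26 ± 0.24, and at 0.02 without wild-type replicate 1.

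**Figure D3:**
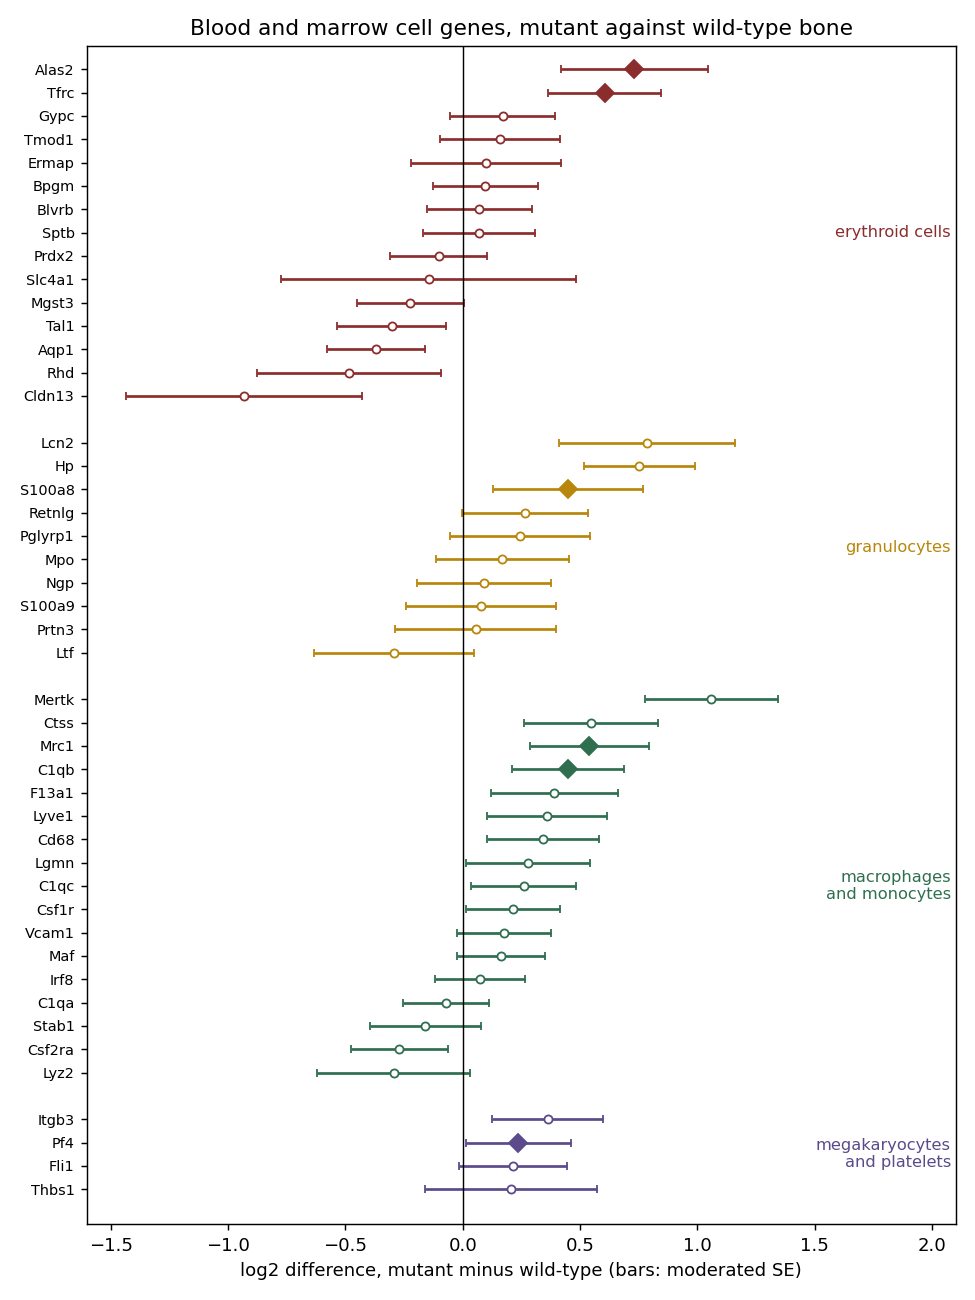
Log2 difference, mutant minus wild-type (horizontal axis, bars the moderated SE), of every measured gene of 4 blood cell lists, with the 6 markers as filled diamonds. Alas2 and Tfrc head a red cell list that reaches down to -0.93 for Cldn13, while 13 of 17 macrophage genes lie above 0 and Mertk is highest at 1.06. The filter by level kept Cldn13 only with wild-type arrays at 20 or more, which favours a lower mutant mean.

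Granulocyte genes around S100a8 had mostly higher means in the mutants, but this rested on wild-type replicate 2. Of 33 listed genes 10 were measured, 9 with higher means and 1 (Ltf) with a lower mean, 0 passed, and the median log2 difference was 0.21. Without wild-type replicate 2 this median was -0.13, so its direction turned, while it was 0.38 without wild-type replicate 1 and 0.40 without wild-type replicate 3. All 10 genes had their lowest value on wild-type replicate 2, where 6.64% of all probe sets did. Taken relative to all genes, its mean level was 0.34, -0.78 and 0.19 in wild-type bone and at -0.07, 0.27 and 0.08 in mutant bone.

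S100a9, the partner of S100a8 in calprotectin and its neighbour on chromosome 3, was at 21.6, 18.6 and 42.5 in wild-type bone and 24.7, 23.3 and 34.9 in mutant bone. Like S100a8 it was highest on replicate 3 of each group, but its means were nearly equal, 27.6 ± 13.1 and 27.6 ± 6.35 (SD, n = 3 each; log2 difference 0.08 ± 0.32, limma adjusted p = 0.964). Hp, for the haemoglobin scavenger haptoglobin, was at 15.9, 12.6 and 17.7 against 23.4, 33.3 and 22.0 (0.75 ± 0.23, adjusted p = 0.591). All its wild-type values lay under 20, so the filter by level fixed in advance that its groups did not overlap. Lcn2, for the iron-siderophore binding protein lipocalin 2, was at 89.2, 47.6 and 98.5 against 119.9, 212.4 and 84.1 (0.79 ± 0.37, adjusted p = 0.691), and mutant replicate 2 was by far its highest array. Of the granule protein genes of granulocyte precursors, Mpo was at 0.17 ± 0.28, Ngp at 0.09 ± 0.29, Prtn3 at 0.05 ± 0.34 and Ltf at -0.29 ± 0.34.

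Other genes of the S100 family lay on the opposite side of the wild-type level. Of 7 measured members of 17 listed, 2 (S100a8 and S100a9) had higher and 5 lower means in the mutants, and 0 passed. S100a6, which many connective tissue cells express, was at 82.4, 79.9 and 87.6 against 50.0, 70.5 and 47.1, without overlap (-0.60 ± 0.22, limma adjusted p = 0.644). The brighter probe set of S100a11 was at -0.37 ± 0.19, and S100a13 was at -0.23 ± 0.19.

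Macrophage genes around Mrc1 and C1qb had higher means in 13 of the 17 measured of 43 listed, with 0 passing and a median log2 difference of 0.26. Without wild-type replicate 1 the median was 0.14, also with 13 of 17 higher, while the median of all probe sets was then -0.03. Mertk, which encodes a receptor that macrophages use to engulf dying cells, was at 17.7, 26.0 and 24.98 in wild-type bone and at 69.3, 43.4 and 34.7 in mutant bone. Its groups did not overlap, and its means were 22.9 ± 4.495 and 49.1 ± 18.0 (SD, n = 3 each; log2 difference 1.06 ± 0.28, limma adjusted p = 0.559). Ctss, for the lysosomal protease cathepsin S, was at 23.5, 21.9 and 27.6 against 39.5, 49.4 and 22.7, where mutant replicate 3 lay within the wild-type range (0.55 ± 0.29, adjusted p = 0.709). F13a1, for a subunit of coagulation factor XIII, was at 0.39 ± 0.27, and Cd68, for a lysosomal membrane protein, at 0.34 ± 0.24. Lyve1 and Csf1r, for a hyaluronan receptor and the growth factor receptor of the lineage, were at 0.36 ± 0.26 and 0.22 ± 0.20. These were lower with wild-type replicate 1 left out, F13a1 at 0.10, Cd68 at 0.16, Lyve1 at 0.15 and Csf1r at 0.13. Lyz2, for the lysozyme that macrophages and granulocytes share, was at -0.29 ± 0.33, and Stab1, for a scavenger receptor, at -0.16 ± 0.24.

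The 3 chains of C1q, made from neighbouring genes on chromosome 4, did not lie together. C1qa was at 28.4, 27.7 and 29.7 in wild-type bone and 29.4, 25.8 and 26.7 in mutant bone, a log2 difference of -0.07 ± 0.18 (SE, limma adjusted p = 0.940). C1qc was at 23.6, 31.0 and 29.0 against 36.8, 38.04 and 26.1 (0.26 ± 0.22, adjusted p = 0.773). C1qb, at 0.45, had the largest difference of the 3. Whether the 3 differences differ from one another was not tested. Among 8 measured complement genes of 34 listed, 6 had higher and 2 lower means and 0 passed, with Serping1, for the inhibitor of the C1 complex, at 0.41 ± 0.25, and Calr, for the chaperone calreticulin that binds C1q, at -0.58 ± 0.25.

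Only 4 of 24 listed megakaryocyte and platelet genes were measured, all 4 with higher means in the mutants and a median of 0.22, and 0 passed. Wild-type replicate 1 was the lowest array for each of these 4. Apart from Pf4, these were Itgb3, for the beta chain of the platelet fibrinogen receptor, which osteoclasts also make (57.9, 80.5 and 91.6 against 115.9, 92.3 and 84.9; 0.36 ± 0.24), Fli1 (0.21 ± 0.23) and Thbs1 (0.21 ± 0.37), and vessels or stroma express these last genes too. Ppbp, the platelet chemokine gene next to Pf4 on chromosome 5, was not analysed here. With wild-type replicate 1 left out, the median was 0.09 and 3 of the 4 had higher means: Pf4 was at 0.16, Itgb3 at 0.17 and Fli1 at 0.01, while Thbs1 turned to -0.18. With array weights the median was 0.08.

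Genes of all leukocytes had higher means in 10 of 13 measured of 26 listed, with a median of 0.20, and 0 passed. Leaving out wild-type replicate 3 gave a median of 0.46, leaving out wild-type replicate 1 gave 0.13, and array weighting gave 0.07. Laptm5, for a lysosomal membrane protein of blood cells, was at 93.5, 128.7 and 146.3 in wild-type bone and 218.7, 197.1 and 198.7 in mutant bone. The mutant arrays were close together and all above the wild-type arrays (122.8 ± 26.8 and 204.8 ± 12.1, SD, n = 3 each; log2 difference 0.76 ± 0.22, limma adjusted p = 0.590). Cd53, for a leukocyte tetraspanin, was at 0.43 ± 0.24, Hcls1, for a cytoskeletal adaptor of blood cells, at 0.41 ± 0.27, and Alox5ap, for a protein of leukotriene synthesis, at 0.37 ± 0.24. In Cd53 and Hcls1 wild-type replicates 1 and 2 lay under 20. The filter by level thus kept these genes only with mutant arrays at 20 or more, which favours a higher mutant mean. Of 28 lymphoid genes 1 was measured, Ebf1, a factor of B cell precursors and also of stroma, at 0.22 ± 0.32. Its wild-type replicate 1 was at 20.3 and the other arrays between 38.04 and 51.2, and its direction turned to -0.19 when that array was left out and to -0.13 under array weighting.

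**Figure D4:**
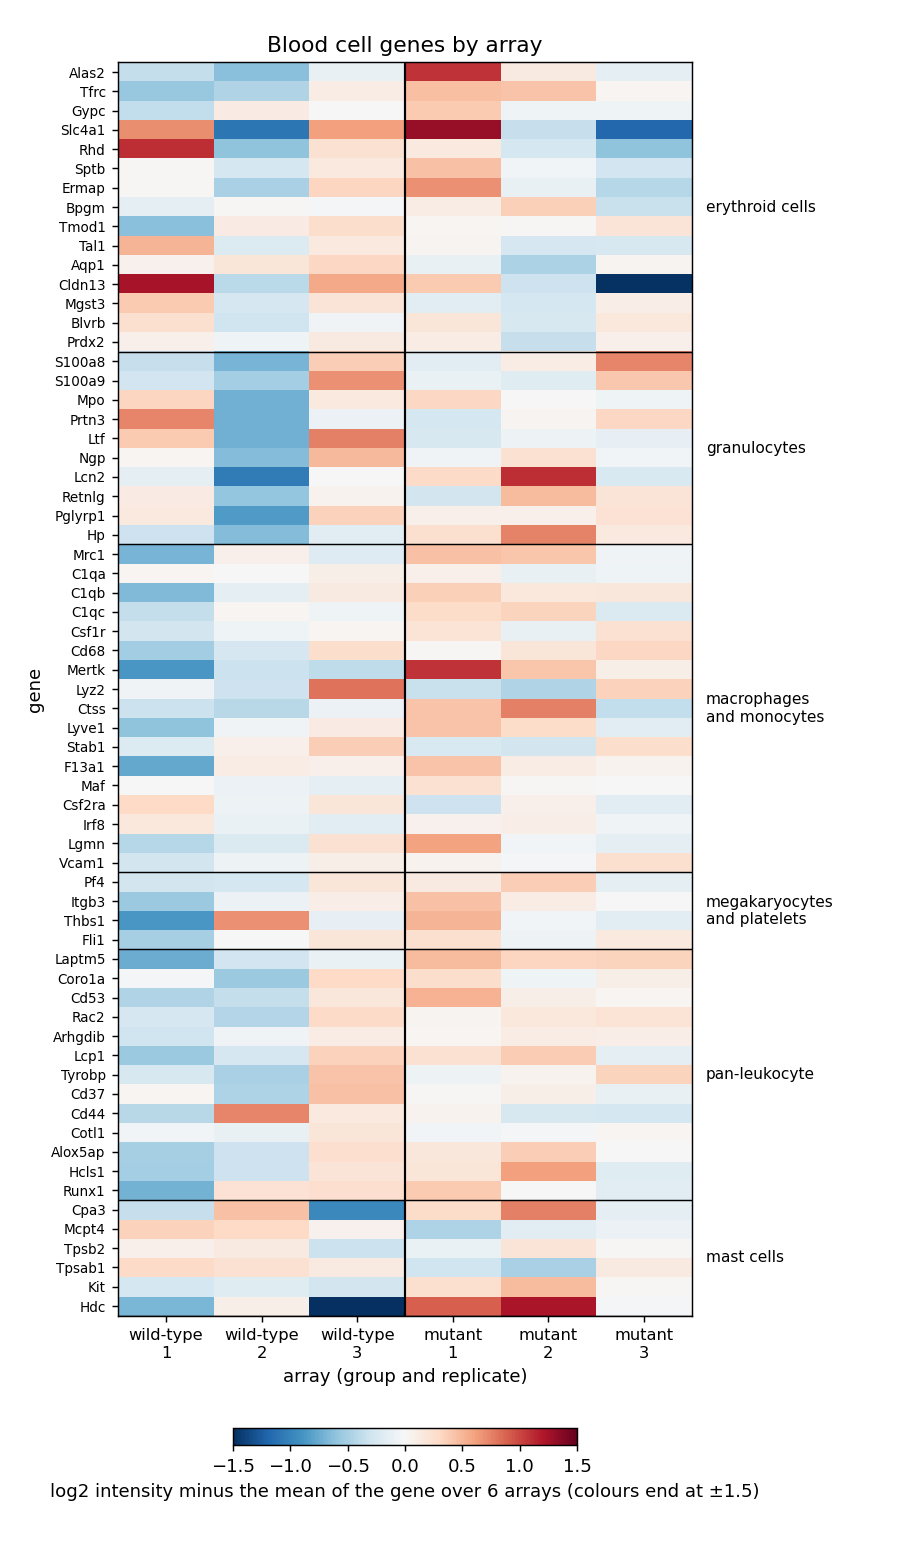
Log2 intensity of each measured blood cell gene (rows, grouped by list) on each array (columns), minus the mean of that gene over the 6 arrays, blue below and red above, with colours ending at ±1.5. The granulocyte genes are all blue on wild-type replicate 2, Slc4a1 is dark red on mutant replicate 1 and dark blue on mutant replicate 3, and Laptm5 is blue on the wild-type and red in mutant bone.

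Markers of other tissues moved with the arrays as well. The 6 measured skin genes had their highest levels in wild-type replicates 1 and 2, then in mutant replicate 2, at 2.92, 2.11 and -2.15 in wild-type bone and -1.59, 0.80 and -2.07 in mutant bone (mean log2 level relative to all genes), and the sum of their intensities ran from 47.3 to 1798 in the wild-type and from 51.3 to 460.4 in the mutants. The 14 measured muscle genes stood at -0.29, 0.01 and 0.51 in wild-type bone and at -0.20, -0.22 and 0.22 in mutant bone, with sums from 4173 to 8624 and from 5268 to 7268. The 9 measured osteoclast genes, of cells that descend from the macrophage lineage, stood at -0.06, -0.24 and -0.04 against 0.19, 0.10 and 0.07, so that each mutant array exceeded each wild-type array in this mean. That was not particular to osteoclasts. The 4 measured genes of blood progenitors and the marrow niche separated likewise, at 0.012, -0.129 and -0.081 against 0.096, 0.019 and 0.107. Of the 9 osteoclast genes, 6 had higher and 3 lower means in the mutants, and 0 passed. Of all measured genes on the skin, muscle and osteoclast lists 0 were at an intensity of 0. The part of skin, muscle and osteoclasts in the marker differences was not tested.

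**Figure D5:**
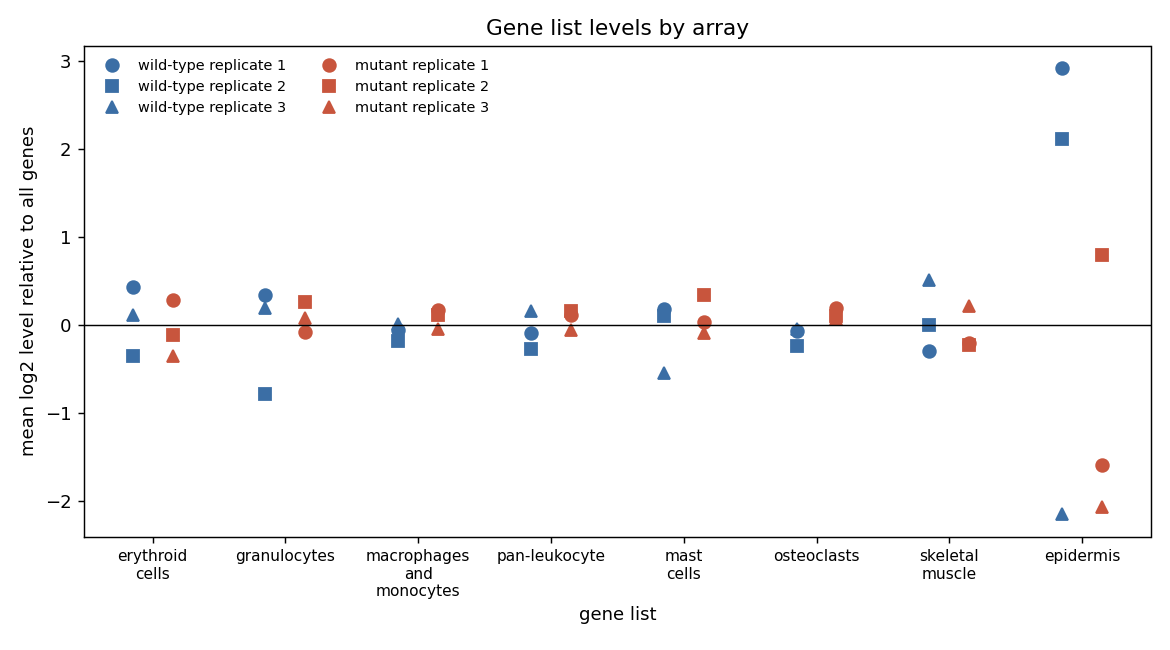
Mean log2 level of each gene list relative to all genes (vertical axis) on each array, wild-type in blue and mutant in red, with the shape giving the replicate number. The skin list spans from -2.15 to 2.92, far more than any blood cell list, the granulocyte list is lowest on wild-type replicate 2 (-0.78), and the macrophage list stays between -0.18 and 0.17.

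Genes whose values followed those of each marker over the 6 arrays were ranked by Pearson's r of the log2 intensities, among 5555 other named genes, as a description. Nearest to Alas2 were Ipo13, for a nuclear import factor, Mcoln1, for a lysosomal cation channel, and Slc2a4, for the insulin-responsive glucose transporter of muscle and fat, with r of 0.99, 0.99 and 0.98. Nearest to Tfrc were Gas2l3 (r = 0.9955), Trim54 (0.98) and Trmt1 (0.98). For S100a8 they were Timm8b, of mitochondrial protein import (0.97), Gmfg, an actin regulator of blood cells (0.95), and Uqcr10, of respiratory complex III (0.95). For Mrc1 they were Zmiz1, the collagen cross-linking enzyme gene Lox and the RNA helicase gene Ddx3x (0.9974, 0.9959 and 0.9935). C1qb was followed most closely by Pank3, a kinase of coenzyme A synthesis, and by the muscle genes Myom2 and Ppp1r12b (0.9965, 0.9936 and 0.9928), and Pf4 by the blood cell gene Hcls1 (0.98), Cndp2 (0.97) and Nckap5l (0.97).

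Many genes had a high r with 2 of the markers: 543 genes (9.77%) were above 0.9 with Mrc1 and 461 (8.30%) with C1qb. Fewer were above 0.9 with the others, 85 for Tfrc, 57 for Alas2, 18 for Pf4 and 15 for S100a8. The values were not centred by array for this ranking. Tfrc, Mrc1, C1qb and Pf4 were lowest on the dim wild-type replicate 1, as were 50.0% of all probe sets. The part of that array in the correlations was not tested. Of the 18 genes ranked nearest, 1 (Hcls1, with Pf4) was on a blood cell list.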

How the data were processed

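The members and gene lists were chosen with earlier results of these data known. Per the labels' protocols, RNeasy columns were used for the RNA, which was then amplified, and the cDNA was fragmented and labelled with biotin for Affymetrix whole-transcript arrays. The authors deposited linear intensities, 1 per probe set and array. Background correction, summarisation, scaling and build are each not given in the sources used here.

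Their log2 was taken without another normalization or filter, and limma 3.58.1 (lmFit and eBayes, R 4.3.3) compared the group means of all 8997 probe sets. Two-sided p-values were adjusted after Benjamini and Hochberg, with a threshold of 0.05. Levels are means ± SD, and each difference (mutant minus wild-type) has its moderated SE. The number of arrays limits the precision.

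Gene names came from the platform annotation of 2016: 6398 probe sets had 1 symbol, 576 several and 2023 none. Checked through Entrez identifiers against RefSeq GRCm38.p6, 0 symbols needed updating. The probe set with the highest mean stood for a gene. Named genes were the 6 markers, up to 4 genes of smallest p per list, any gene of the 4 blood lineage lists, and the 3 genes nearest each marker by Pearson's r. Alad, Urod, Cpox, Alas1, Cpa3, Tpsb2, Col1a1, Acta1 and Krt1 were chosen after their values were seen.

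Alternatives were quantile normalization, median centring, 2 filters on dim probe sets, array weights, a variance trend by intensity with robust fitting, a block for the replicate number, adding 16 before the logarithm, the mean over a gene's probe sets, and leaving out each array. On 20 simulated tables of this comparison, with 8997 probe sets each, the fit recovered 37.5% of 2-fold and 87.6% of 4-fold changes, and 4.1% of its calls were false. Those tables held independent normal noise for each probe set, without a dim array or variation shared between genes. The rates may thus differ on the real arrays. Tables and plots were made in Python 3.11.15 (pandas 2.3.3, matplotlib 3.10.9).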

Additional observations from a re-analysis of the deposited data

How the results depend on the processing

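The differences of the 6 markers kept their direction and stayed short of the threshold under all 80 values computed for the alternatives, with adjusted p between 0.286 and 0.983. The variance trend, the replicate block and the 2 filters on dim probe sets could change only the error and p of a difference. The direction of those values was thus fixed in advance. Over 1 array left out at a time, the log2 difference ranged from 0.37 to 0.98 for Alas2, 0.47 to 0.81 for Tfrc, 0.19 to 0.74 for S100a8, 0.33 to 0.71 for Mrc1, 0.23 to 0.63 for C1qb and 0.11 to 0.39 for Pf4. The count of probe sets called over the whole table, 0 with all arrays, was 4 with array weights and from 0 to 15 with 1 array left out; the cause was not tested. At an unadjusted p under 0.05 that count was 669 with all arrays, 322 without mutant replicate 1, 393 without mutant replicate 2, 595 without wild-type replicate 1 and, under array weighting, 1412, and the highest with 1 array left out was 974, without wild-type replicate 2. S100a8 and C1qb were too dim to enter the fits without the dimmest 25% of probe sets or with an intensity of 20 on all arrays. Each marker had 1 probe set, so averaging over probe sets could not change it.

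The labels speak of littermate pairs but do not say that the replicate numbers, 1 to 3 in both groups, mark them. Deviations from the group means correlated at -0.11, -0.03 and 0.32 between arrays of the same number. The numbers were not taken as pairs, and the main fit ignores any pairing. These correlations cannot show that the arrays were unpaired, and a pairing in another order was not tested. Not every array correlated best with its own number, since wild-type replicate 1 was nearest to mutant replicate 2 (0.34). With the replicate number as a block, limma called 0 probe sets, and the log2 differences of the markers were those of the fit without it (0.73 for Alas2, 0.61 for Tfrc, 0.45 for S100a8, 0.54 for Mrc1, 0.45 for C1qb and 0.24 for Pf4), with adjusted p from 0.637 to 0.768. S100a8 and C1qb lay near an intensity of 20, where background handling limits their folds.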

Other observations

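Mast cells, which store histamine and proteases and live in the connective tissue of skin, muscle and marrow, showed differences in both directions. Of 11 listed mast cell genes 6 were measured, 4 with higher and 2 with lower means in mutant bone, and 0 passed with limma. Hdc, for the enzyme that makes histamine, was at 29.1, 49.7 and 16.7 in wild-type bone and at 87.1, 109.7 and 46.2 in mutant bone, a log2 difference of 1.40 ± 0.42 (SE, limma adjusted p = 0.591), with mutant replicate 3 below wild-type replicate 2. Kit, for the stem cell factor receptor, was at 17.9, 18.9 and 17.7 against 25.4, 29.8 and 21.7 (0.48 ± 0.20, adjusted p = 0.667). All wild-type values of Kit lay under 20, so the filter by level fixed its order in advance. Cpa3, for the mast cell carboxypeptidase, was at 35.3, 60.8 and 22.9 against 54.4, 75.6 and 40.5 (0.59 ± 0.36). The other protease genes lay on the other side or level: Mcpt4 was at 28.9, 28.1 and 23.9 against 16.6, 20.3 and 21.6 without overlap (-0.47 ± 0.20, adjusted p = 0.667), Tpsab1 at -0.43 ± 0.22 and Tpsb2 at 0.08 ± 0.21. Mutant replicate 2 was the highest array for 4 of the 6 and wild-type replicate 3 the lowest for 4.

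Of 18 genes of blood progenitors and the marrow niche 4 were measured, all with higher means in the mutants and none past the limma threshold. Cxcl12, the chemokine by which stroma holds blood progenitors, was at 21.5, 24.0 and 25.2 in wild-type bone and 29.0, 27.8 and 45.4 in mutant bone, without overlap (0.50 ± 0.24, limma adjusted p = 0.686). Its receptor gene Cxcr4 was at 0.30 ± 0.23, Csf1, for the growth factor of macrophages, at 0.09 ± 0.20, and Cd34 at 0.02 ± 0.26. Without wild-type replicate 1, 2 of the 4 had higher means, and Csf1 was at -0.05 and Cd34 at -0.24.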
